A study of Homo sapiens with 6 samples.

Results

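The metalloproteinases and their inhibitors were examined in HT29 cells, a line established from a human colorectal adenocarcinoma. The members are all genes whose symbol is MMP, ADAM or ADAMTS followed by a number, and the tissue inhibitors TIMP1 to TIMP4, each read by a probe set annotated to 1 symbol. There were 64 of them among 18417 such genes: 22 MMP, 21 ADAM, 17 ADAMTS and 4 TIMP genes. Where a gene had more than 1 probe set, the one with the highest mean was used. The 6 arrays comprised 3 of HT29 cells carrying a control construct and 3 of HT29 cells carrying a laminin α1 expression construct. Laminin is a 3-chain protein of basement membranes, and α1 is 1 of its chains. All cells had 7 days of growth. Each group's 3 arrays come from separate culture passages, and the errors below measure how far passages differ. The sources used here name neither the number of clones behind each group nor the promoter of the construct. The title of the series poses the question of how the laminin α1 chain affects colorectal cancer cells in culture.

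Matrix metalloproteinases (MMPs) are zinc enzymes, secreted or anchored in the membrane, that cut collagens, laminins, proteoglycans and other proteins outside the cell. They are made as inactive precursors, and TIMPs block them by binding the active site. ADAMs are membrane proteins, several of which cut the outer part off other membrane proteins (shedding), such as ligands of the EGF receptor, and ADAMTS enzymes are secreted relatives that process procollagens, proteoglycans and von Willebrand factor. In the intestine MMP7 is unusual among MMPs in being made by epithelial cells, including many colorectal tumours, while stromal cells make most of the others.

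The values are log2 expression levels, on which a difference of 1 is a doubling. A member was tested when its mean over the 6 arrays lay above 5.50, the 25th percentile of all genes, which held for 36 members. The other 28 lay below this level, where signal is low and a change is hard to see. Differences are laminin α1 minus control, and a gene passed when its adjusted p from the limma fit over all 13812 tested genes was under 0.05.

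In the arrays labelled laminin α1, 3 of the 36 tested members were higher and 2 were lower. Among all tested genes 2.69% were higher and 2.59% lower, 5.29% in all, against 13.9% of the tested members. An unadjusted p under 0.05 was found for 16.7% of all tested genes and for 6 of the 36 members, which is the same share. MMP7, the epithelial matrilysin, fell 2.42-fold and ADAMTS6, a secreted protease of the ADAMTS family, rose 2.25-fold. ADAM28 fell 1.51-fold, and ADAM8 and the inhibitor TIMP2 rose 1.30-fold and 1.28-fold. Only MMP7 and ADAMTS6 differed by 2-fold or more, which 0.485% of all tested genes did with an adjusted p under 0.05. The remaining 31 tested members did not pass. The median difference over the 36 was -7.2e-05, beside -0.01 over all tested genes.

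Upstream sequence was available for 37 of the 64 members. It is shown for MMP7, which fell most, for MMP10, a stromelysin gene of the same chromosome 11 cluster that stayed below the level filter, and for ADAMTS6 and ADAM8, which rose. Each run is the 250 bases before the gene's start in RefSeq (GRCh38.p14), 5′ to 3′ on the minus strand, on which all 4 genes lie. The windows are chr11:102530748-102530997 for MMP7, chr11:102780629-102780878 for MMP10, chr5:65481921-65482170 for ADAMTS6 and chr10:133276869-133277118 for ADAM8. Capitals mark matches on either strand to TGANTCA (the AP-1 site), TATAAA (the TATA box), AGGAAG (an ETS site) and CTTTGA (the core of TCF/LEF sites), which were chosen with the sequences in view.
MMP7: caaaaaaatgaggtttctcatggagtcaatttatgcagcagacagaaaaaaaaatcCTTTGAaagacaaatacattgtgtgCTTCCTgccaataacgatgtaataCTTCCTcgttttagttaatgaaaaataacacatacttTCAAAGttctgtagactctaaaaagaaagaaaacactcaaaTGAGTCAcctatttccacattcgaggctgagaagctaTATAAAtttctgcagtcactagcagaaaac
MMP10: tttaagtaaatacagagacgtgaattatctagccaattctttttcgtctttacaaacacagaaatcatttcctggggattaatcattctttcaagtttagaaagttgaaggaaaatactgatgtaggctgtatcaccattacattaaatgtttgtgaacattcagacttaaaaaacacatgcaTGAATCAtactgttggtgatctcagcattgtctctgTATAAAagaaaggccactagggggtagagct
ADAMTS6: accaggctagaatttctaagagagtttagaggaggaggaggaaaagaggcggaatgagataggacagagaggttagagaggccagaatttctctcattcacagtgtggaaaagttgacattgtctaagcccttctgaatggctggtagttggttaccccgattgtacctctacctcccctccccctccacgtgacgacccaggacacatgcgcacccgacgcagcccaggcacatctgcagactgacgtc
ADAM8: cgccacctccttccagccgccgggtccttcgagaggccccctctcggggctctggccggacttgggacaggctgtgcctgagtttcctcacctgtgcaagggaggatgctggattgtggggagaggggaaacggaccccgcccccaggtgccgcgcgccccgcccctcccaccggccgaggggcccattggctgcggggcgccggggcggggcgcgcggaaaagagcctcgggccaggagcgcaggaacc

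The MMP7 window held all 4 motifs. Its AP-1 match TGAGTCA lay 67 to 61 bases before the start, a TATAAA 30 to 25 bases before it, ETS matches at 169 to 164 and 145 to 140, and TCF/LEF matches at 194 to 189 and 108 to 103. MMP10 had TGAATCA at the same 67 to 61 bases and TATAAA at 31 to 26, with 0 ETS and 0 TCF/LEF matches. The windows of ADAMTS6 and ADAM8 had 0 matches to any of these letters, and no printed match overlapped another. The windows of MMP7 and MMP10 had a GC content of 33.6% and 34.4%, that of ADAMTS6 52.4% and that of ADAM8 73.6%, where the median of all windows was 58%. Among all 35116 windows of this length in the table, 6.57% held the AP-1 letters, 10.7% TATAAA, 28.7% the ETS letters and 11.2% the TCF/LEF letters. Of the 37 members with a window, 4 held the AP-1 letters (MMP7, MMP10, MMP20 and ADAMTS12), 7 held TATAAA, 9 the ETS letters and 3 the TCF/LEF letters (MMP7, MMP21 and ADAM20). A match describes these letters and does not show that a factor binds there. Of the other members described closely below, MMP2, MMP9, ADAM28 and TIMP2 are not in the table.

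Of the matrilysins, small MMPs that lack the hemopexin domain, MMP7 had levels of 11.17, 11.22 and 11.31 in control arrays, against 9.89, 10.04 and 9.92 with the laminin α1 construct. The lowest control array lay more than a log2 unit above the highest laminin α1 array. The means were 11.23 ± 0.07 and 9.95 ± 0.08 (SD, n = 3 per group), a log2 difference of -1.28 (SE 0.07, 95% interval -1.43 to -1.12, limma adjusted p = 5.37e-06). Leaving out any 1 array kept the call, with limma adjusted p between 8.22e-06 and 7.11e-05. An exact permutation test of 3 against 3 arrays is two-sided here and cannot give a p below 0.1, which MMP7 and every other member whose groups did not overlap reached. The other matrilysin, MMP26, was below the filter at 4.06, with a difference of 0.06.

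MMP7 is the first in RefSeq order of 9 MMP genes that lie in a row on chromosome 11, followed by MMP20, MMP27, MMP8, MMP10, MMP1, MMP3, MMP12 and MMP13. The other 8, which include the collagenases and 2 stromelysins, were all below the filter, with levels of 3.51 to 4.86. In the fit without the filter their differences ran from -0.04 to 0.11, and the smallest limma adjusted p was 0.512. That was MMP1, which was higher in all 3 laminin α1 arrays, at 4.83, 4.78 and 4.78 in control and 4.97, 4.89 and 4.85 in laminin α1 arrays. MMP7 was thus the only gene of this cluster above the filter and the only one to pass. At the low levels of the other 8 a change is hard to see. Of the 5 tested genes on each side of MMP7 in RefSeq order, 0 of 10 passed in limma. An unadjusted p under 0.05 was found for 3 of these neighbours, against 16.7% of all tested genes. Their median difference was -0.17, beside -0.01 over all tested genes, and 7 of 10 were below 0. Those nearest were TMEM123 at -0.20 and DCUN1D5 at -0.17, small beside the fall of MMP7. The part of this neighbourhood in the fall of MMP7 was not tested.

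**Figure D1:**
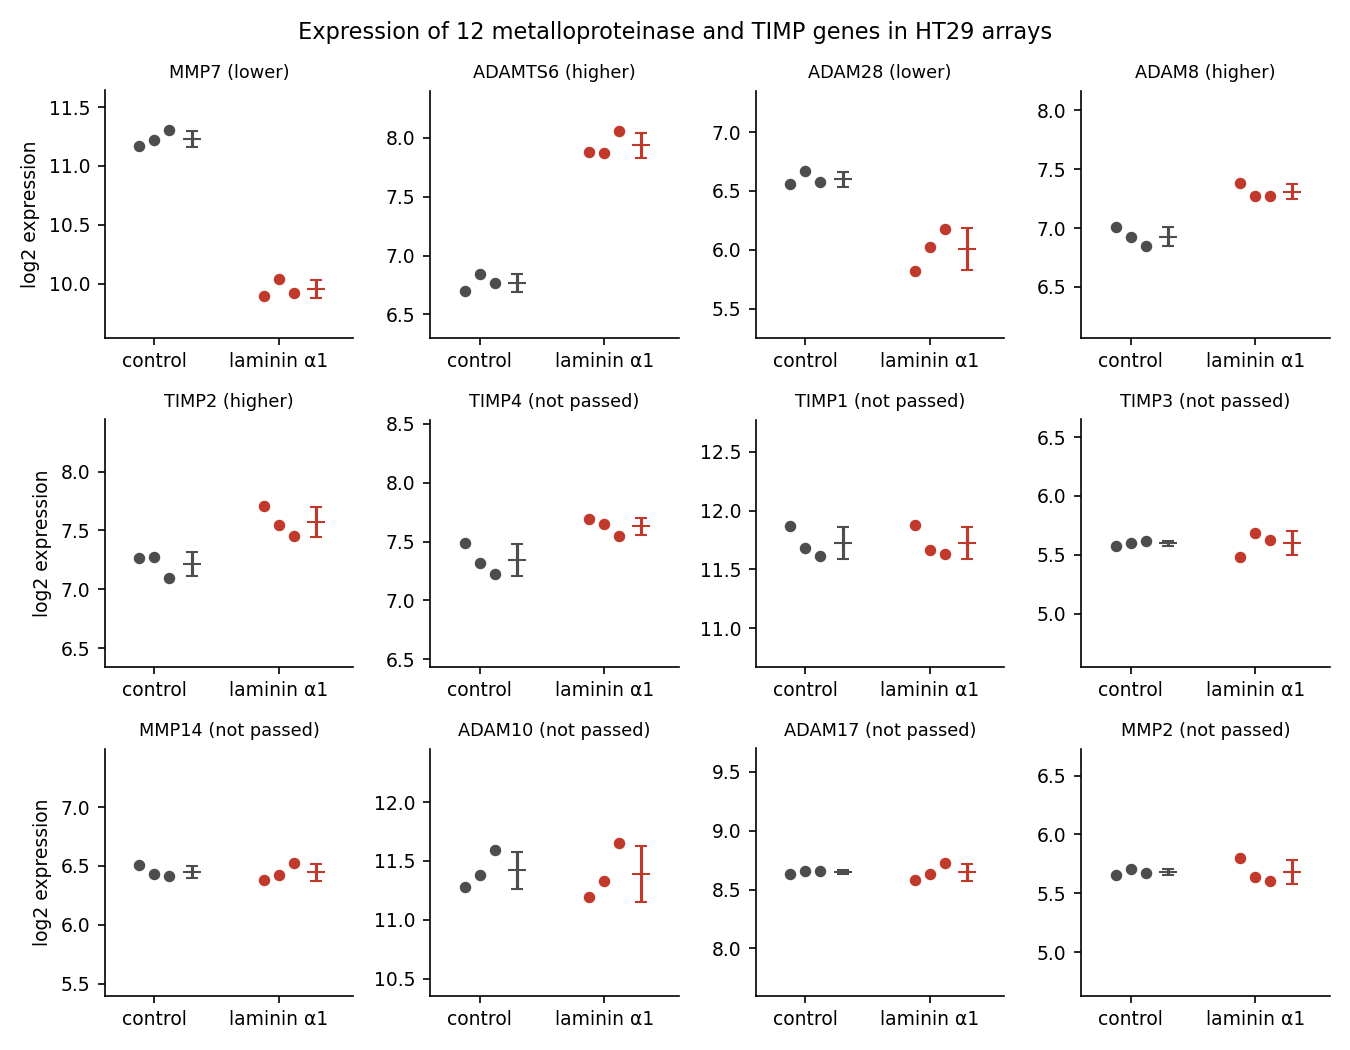
Log2 expression (y axis, the same span in every panel) of 12 members in the 3 control arrays (grey) and 3 laminin α1 arrays (red), replicates 1 to 3 from left to right, with the mean and SD to the right of the points. MMP7 and ADAM28 lie lower and ADAMTS6, ADAM8, TIMP2 and TIMP4 higher in all laminin α1 arrays, with TIMP4 not past the threshold, and the other 6 overlap.

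The gelatinases, which cut denatured collagen and type IV collagen of basement membranes, were not among the genes that passed. MMP2 read 5.66, 5.71 and 5.67 in control and 5.80, 5.63 and 5.61 in laminin α1 arrays, close to the filter level in every array. Its difference was -0.0016 (95% interval -0.16 to 0.16, limma adjusted p = 0.996). MMP9 was below the filter, with 5.40, 5.28 and 5.29 in control and 5.46, 5.36 and 5.35 in laminin α1 arrays. In the fit without the filter its difference was 0.06 (95% interval -0.08 to 0.21, limma adjusted p = 0.739). The groups of both genes overlapped.

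Membrane-type MMPs are held on the cell surface, and MMP14, the best known, activates the precursor of MMP2. MMP14 read 6.51, 6.43 and 6.41 in control and 6.38, 6.42 and 6.53 in laminin α1 arrays. The groups overlapped, and the difference was -0.0063 (95% interval -0.16 to 0.14, limma adjusted p = 0.978). Of the 6 membrane-type genes 5 were tested and 0 passed, with differences of -0.04 to 0.12 over the 6. MMP15, at the upper end, lay higher in all 3 laminin α1 arrays, with means of 7.85 ± 0.02 and 7.97 ± 0.08 (SD, n = 3), but did not pass (limma adjusted p = 0.426). A second probe set of MMP16, with levels of 3.60 to 3.93 below the filter, had a difference of 0.16, outside this range. MMP11, the only stromelysin above the filter, had a difference of -0.06. Among the other MMPs, MMP28, or epilysin, was lower in all 3 laminin α1 arrays, at 6.49 ± 0.09 and 6.34 ± 0.03 (SD, n = 3), and did not pass (limma adjusted p = 0.313).

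ADAM10 and ADAM17 are the main sheddases of many membrane proteins, ADAM10 of Notch receptors and E-cadherin and ADAM17 of TNF and several EGF receptor ligands. ADAM10 read 11.28, 11.38 and 11.60 in control and 11.19, 11.33 and 11.65 in laminin α1 arrays. Its spread within each group, with SDs of 0.16 and 0.24, was larger than the difference of -0.03 (95% interval -0.30 to 0.24, limma adjusted p = 0.942). ADAM17 read 8.63, 8.66 and 8.66 in control and 8.58, 8.63 and 8.73 in laminin α1 arrays, a difference of -0.0024 (95% interval -0.15 to 0.14, limma adjusted p = 0.992). The groups of both sheddases overlapped. ADAM9, another sheddase, was highest in the array of replicate 3 in both groups, as ADAM10 was, at 10.53 and 10.51. Its difference was -0.13 (limma adjusted p = 0.710).

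The ADAM genes that passed moved in opposite directions. ADAM28, a member first described in lymphocytes and also made by epithelial tumours, read 6.55, 6.67 and 6.57 in control and 5.82, 6.03 and 6.18 in laminin α1 arrays. The groups did not overlap, and the means were 6.60 ± 0.06 and 6.01 ± 0.18 (SD, n = 3). The log2 difference was -0.59 (SE 0.09, limma adjusted p = 0.00376), and the call was kept without any 1 array, at adjusted p of 0.000831 to 0.0254. ADAM28 lies on chromosome 8 beside STC1, which encodes the secreted glycoprotein stanniocalcin and went the other way, by 0.54 (limma adjusted p = 0.00103). None of the other 9 neighbouring tested genes passed in limma, and 2 of them had an unadjusted p under 0.05.

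ADAM8, a protease of leukocytes that is also found in tumour cells, read 7.01, 6.92 and 6.85 in control and 7.38, 7.27 and 7.27 in laminin α1 arrays. All 3 laminin α1 arrays were above all controls. The log2 difference was 0.38 (SE 0.07, 95% interval 0.23 to 0.54, limma adjusted p = 0.0102), and the call was lost without control replicate 2 (limma adjusted p = 0.0626). Its 10 tested neighbours on chromosome 10 had differences of -0.11 to 0.13, and 0 of them passed in limma or had an unadjusted p under 0.05. PTPRC (CD45), a defining marker of leukocytes, lay below the filter at 3.60, with a difference of -0.10. CD14, a marker of monocytes, was above it and higher in all 3 laminin α1 arrays, at 6.85, 6.98 and 6.95 in control and 7.32, 7.05 and 7.02 in laminin α1 arrays, and did not pass (difference 0.20, limma adjusted p = 0.284). CD68, of macrophages, had a level of 7.75 and a difference of 0.09. All arrays are labelled as HT29 cells, a carcinoma line and not a mixed tissue. The source of the rise of ADAM8 was not tested.

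Of the 12 ADAM genes that textbooks list with an active protease domain, 8 were tested, 1 rose, 1 fell and 6 did not pass. Of the 9 without one, 3 were tested and 0 passed. ADAM32, one of these, had the widest laminin α1 spread among them, reading 7.02, 6.48 and 6.75 after controls of 6.38, 6.57 and 6.53, with a difference of 0.26 (limma adjusted p = 0.316). ADAM5, a pseudogene, read 3.45, 3.44 and 3.34 in control and 3.54, 3.55 and 3.58 in laminin α1 arrays, far below the filter but without overlap, and did not pass without it (limma adjusted p = 0.290). ADAM20 and ADAM21 are similar in sequence, and both were below the filter. A further probe set that the annotation gives to both ADAM21 and its pseudogene ADAM21P1 had a difference of -0.05.

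Among the ADAMTS genes, ADAMTS6 had levels of 6.69, 6.84 and 6.77 in control arrays, against 7.88, 7.87 and 8.06 with the laminin α1 construct. The groups were apart by more than a log2 unit. The means were 6.77 ± 0.07 and 7.94 ± 0.11 (SD, n = 3), a log2 difference of 1.17 (SE 0.08, 95% interval 1.00 to 1.34, limma adjusted p = 1.33e-05). Without any 1 array the limma adjusted p ranged from 1.18e-05 to 0.000197. ADAMTS6 is known for its role in heart development and the assembly of fibrillin microfibrils.

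ADAMTS6 did not move alone on chromosome 5. Of its 10 nearest tested neighbours 9 had differences above 0, the median was 0.40, and 3 rose past the threshold: DIMT1 by 0.31, SGTB by 0.41 and NLN by 0.40 (limma adjusted p = 0.0141, 0.00334 and 0.0359). Of the 10, 9 had a limma unadjusted p under 0.05. Over all tested genes 5.29% passed and 16.7% had an unadjusted p under 0.05. DIMT1 modifies ribosomal RNA, SGTB is a co-chaperone and NLN is neurolysin, a metallopeptidase of another family. CWC27 and PPWD1, which flank ADAMTS6 more closely, were at 0.48 and 0.47 and did not pass. HTR1A, a serotonin receptor gene, was the 1 neighbour below 0, at -0.15. The difference of ADAMTS6 was larger than that of each of these neighbours, of which the highest was SREK1IP1 at 0.51 (limma adjusted p = 0.117). The part of this neighbourhood shift in the rise of ADAMTS6 was not tested.

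**Figure D2:**
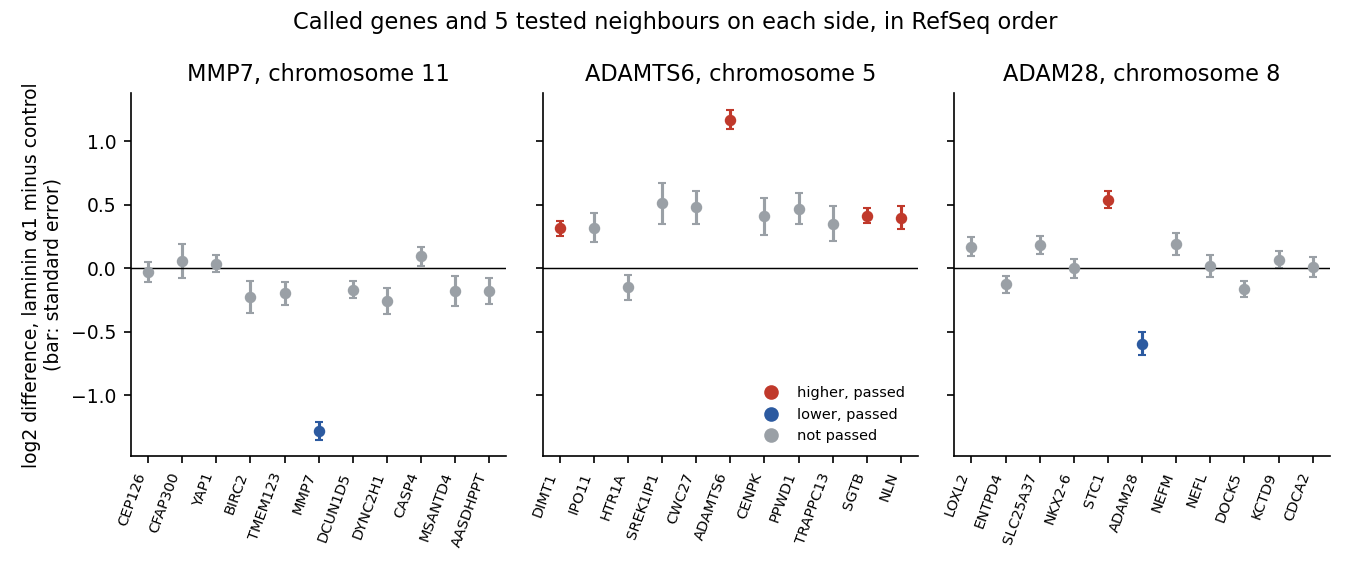
Log2 difference, laminin α1 minus control (y axis, bar: standard error), of MMP7, ADAMTS6 and ADAM28 and of the 5 tested genes on each side of them, in RefSeq order with equal spacing (x axis). The neighbours of ADAMTS6 lie mostly between 0.31 and 0.51, while those of MMP7 lie between -0.26 and 0.09 and STC1 beside ADAM28 stands at 0.54.

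The other ADAMTS genes did not pass. Of the 6 aggrecan-cleaving members, which include ADAMTS1, ADAMTS4 and ADAMTS5, 2 were tested and the differences of all 6 lay between -0.06 and 0.09. The 3 procollagen-processing members ADAMTS2, ADAMTS3 and ADAMTS14 had differences of -0.02 to 0.13. ADAMTS13, which cuts von Willebrand factor, was lower in all 3 laminin α1 arrays, with means of 6.80 ± 0.05 and 6.68 ± 0.07 (SD, n = 3), and did not pass (limma adjusted p = 0.431).

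All 4 TIMP genes were tested, 1 rose and 0 fell. TIMP2, which inhibits MMPs and also helps MMP14 activate the MMP2 precursor, read 7.27, 7.28 and 7.10 in control and 7.71, 7.55 and 7.45 in laminin α1 arrays. The groups did not overlap, and the log2 difference was 0.35 (SE 0.08, 95% interval 0.17 to 0.54, limma adjusted p = 0.0379). This call rested on the full set of arrays: it was lost without control replicate 1, 2 or 3 (limma adjusted p = 0.0862, 0.0982 and 0.134) and without laminin α1 replicate 1 or 2 (limma adjusted p = 0.0933 and 0.123), and kept without laminin α1 replicate 3 (limma adjusted p = 0.0154). The difference itself stayed between 0.29 and 0.41 when 1 array was left out. With all probe sets of the table tested separately the limma adjusted p was 0.121.

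TIMP4 read 7.49, 7.32 and 7.23 in control and 7.69, 7.65 and 7.55 in laminin α1 arrays. Here too every laminin α1 array lay above every control array, but the log2 difference of 0.29 (SE 0.08, 95% interval 0.10 to 0.47) did not pass (limma adjusted p = 0.0820). It passed without control replicate 1 (limma adjusted p = 0.0471) or laminin α1 replicate 3 (limma adjusted p = 0.0469), and had values up to 0.272 when another array was left out. TIMP4 lies within the gene SYN2 in RefSeq. SYN2 went from a mean of 6.06 to 5.87, the opposite direction, and did not pass (limma adjusted p = 0.235). PPARG, the next tested gene on the other side, was at 0.15, the same direction as TIMP4, and did not pass (limma adjusted p = 0.232).

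TIMP1, which growth factors and cytokines induce in many cells, read 11.87, 11.68 and 11.62 in control and 11.88, 11.66 and 11.63 in laminin α1 arrays. The arrays of equal replicate number were alike, with replicate 1 highest in both groups. The difference was 0.0014 (95% interval -0.20 to 0.20, limma adjusted p = 0.996). TIMP3, which binds to the matrix and also inhibits ADAM17, read 5.58, 5.60 and 5.62 in control and 5.49, 5.69 and 5.63 in laminin α1 arrays. Its mean level of 5.60 was close to the filter level. The difference of TIMP3 was 0.0018 (95% interval -0.16 to 0.16, limma adjusted p = 0.995), and its second probe set, with a level below the filter, had a difference of 0.13.

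**Figure D3:**
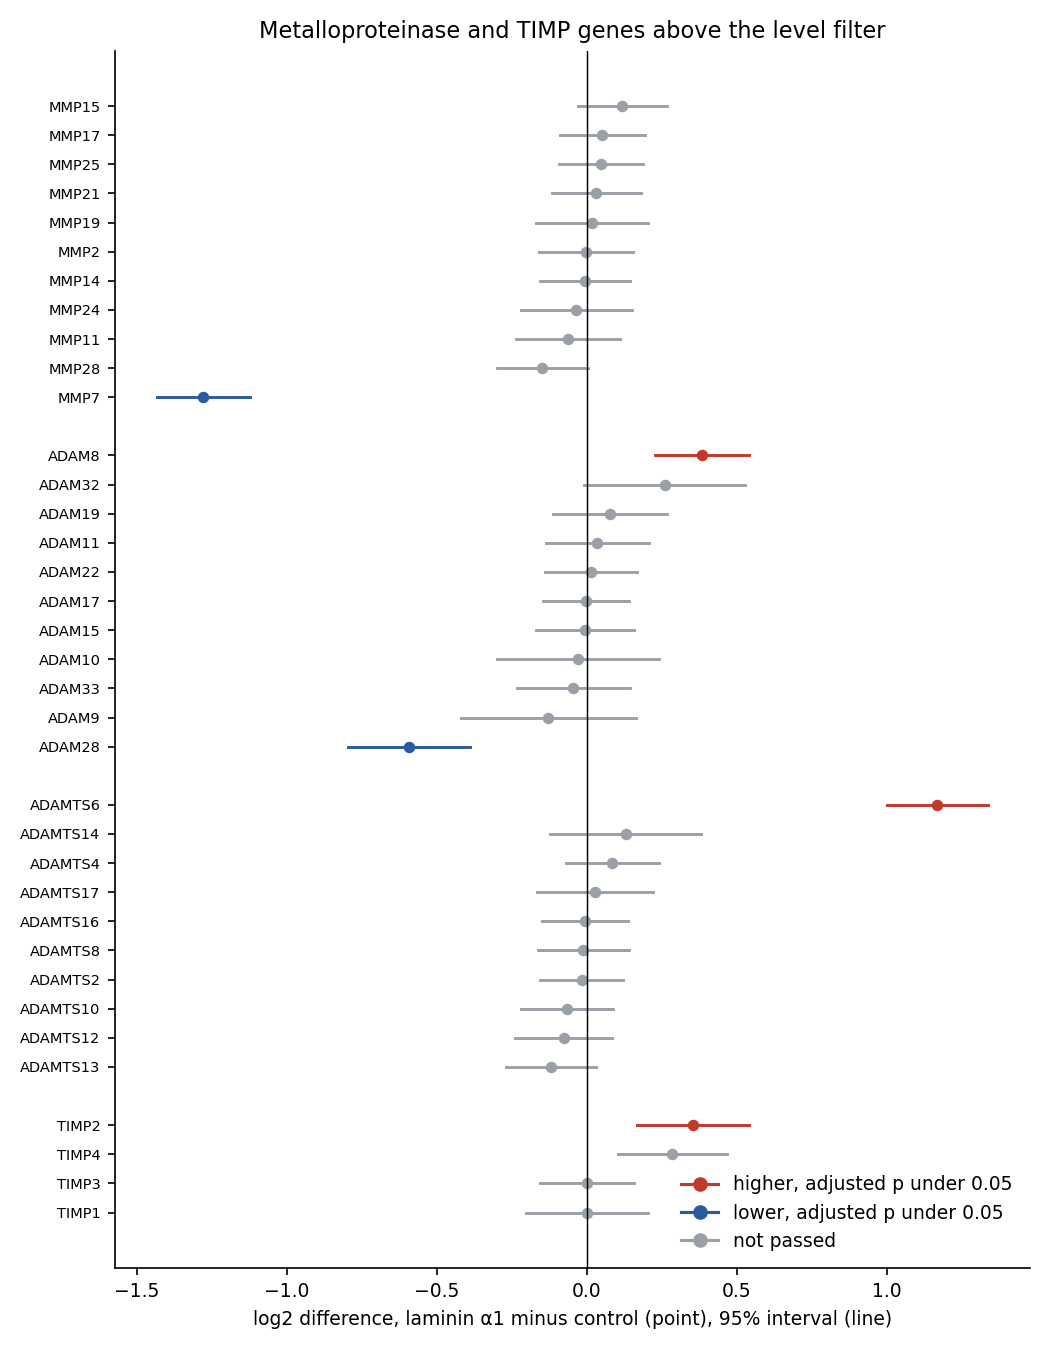
Log2 difference, laminin α1 minus control, with its 95% interval (x axis), of the 36 members above the level filter, sorted within the MMP, ADAM, ADAMTS and TIMP genes (y axis). MMP7 at -1.28 and ADAMTS6 at 1.17 stand apart, and the 31 members in grey did not pass, between -0.15 and 0.29.

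Of the 31 tested members that did not pass, 30 had a limma adjusted p of 0.313 or more, and TIMP4 was the 1 with an unadjusted p under 0.05. The 3 laminin α1 arrays lay wholly above the control arrays for 5 of the 36 tested members and wholly below for 4, or 13.9% and 11.1%. Over all tested genes these shares were 10.1% and 11.5%, so such separation was about as common among the members as among all genes. None of the 28 members below the filter passed in the fit without it, where the differences ran from -0.07 to 0.16, the smallest limma adjusted p was 0.290 and 1 had an unadjusted p under 0.05 (ADAM5). That fit called 4.21% of all 18417 genes, and 5 of the 64 members, the same 5 genes. By family, 1 of 11 tested MMP genes fell, 1 of 11 tested ADAM genes rose and 1 fell, 1 of 10 tested ADAMTS genes rose and 1 of 4 TIMP genes rose.

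Genes that work with the members were taken from 6 lists drawn up with earlier results of these data known. Proenzyme activation and the plasminogen system, through which plasmin and furin convert MMP and ADAM precursors, had 1 of 13 tested genes lower and 0 higher, with a median difference of 0.03, and 3 had an unadjusted p under 0.05. The 1 was SERPINE2, or protease nexin-1, an inhibitor of thrombin and urokinase, which read 8.00, 7.91 and 7.81 in control and 6.96, 6.99 and 6.89 in laminin α1 arrays. Its groups were far apart, with a log2 difference of -0.96 (SE 0.07, limma adjusted p = 3.13e-05). PCSK5 and FURIN, at differences of 0.30 and 0.24, had an unadjusted p under 0.05 but did not pass (limma adjusted p = 0.0507 and 0.127). PLAU and PLAUR did not pass either, at -0.03 and -0.07, and RECK, a membrane-anchored MMP inhibitor, was below the filter at 4.51.

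Sheddase partners are the iRhoms and tetraspanins that help carry ADAM17 and ADAM10 to the surface, and other proteins that bind ADAMs, such as the adaptor SH3PXD2A. Of these 1 of 13 was lower and 0 higher, with a median of -0.07. An unadjusted p under 0.05 in limma was found for 7 of the 13, against 16.7% of all tested genes. TSPAN5, a tetraspanin that binds ADAM10, read 7.99, 7.98 and 8.00 in control and 7.64, 7.53 and 7.60 in laminin α1 arrays, a log2 difference of -0.40 (SE 0.06, limma adjusted p = 0.00405). RHBDF1 and RHBDF2, the iRhoms that escort ADAM17, were at 0.23 and 0.17 and did not pass (limma adjusted p = 0.112 and 0.241). With an unadjusted p under 0.05 but not past the threshold, SH3PXD2B, SH3PXD2A, TSPAN15 and TSPAN33 were at -0.25, -0.22, -0.20 and -0.19. Of the sheddase substrates, 1 of 22 was lower and 0 were higher, with a median of -0.02, and 6 had an unadjusted p under 0.05. It was EREG, the EGF receptor ligand epiregulin, at 10.22, 10.30 and 10.19 in control and 9.30, 9.48 and 9.56 in laminin α1 arrays (log2 difference -0.79, SE 0.08, limma adjusted p = 0.000235), while TGFA was at 0.27 and did not pass (limma adjusted p = 0.0651).

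Of 21 tested transcription factors known to act on MMP promoters, 1 was higher and 0 lower, with a median of 0.03, and 4 had an unadjusted p under 0.05. RUNX2, a factor of bone and cartilage that acts on MMP13, rose by 0.35 (SE 0.08, limma adjusted p = 0.0452). The call did not hold without control replicate 1, 2 or 3 or without laminin α1 replicate 2 or 3, each of which left 0 calls in the list. The AP-1 member FOSL1, the ETS factor ETV4 and CTNNB1, which encodes β-catenin, had differences of -0.0031, 0.11 and 0.07 and did not pass. Other AP-1 and ETS genes differed more. FOS and JUN of AP-1 were at -0.35 and 0.25, and the ETS factor ETV5 was at 0.25. These did not pass either (limma adjusted p = 0.169, 0.325 and 0.192), though FOS and ETV5 had an unadjusted p under 0.05. Of the matrix substrates 1 of 17 was lower and 0 higher, with a median of 0.0043, and 3 had an unadjusted p under 0.05. HSPG2, the basement membrane proteoglycan perlecan, fell by 0.37 (limma adjusted p = 0.0266), and 0 calls were left without control replicate 1 or 2 or laminin α1 replicate 2. Other metalloproteases and relatives, such as BMP1 and the ADAMTS-like genes, had 0 of 9 past the threshold in limma, with 1 at an unadjusted p under 0.05 (ECE1), and a median of -0.02. Against the 5.29% of all tested genes that passed, the lists had shares of 0% to 7.69%. The list counts with an unadjusted p under 0.05 stand beside 16.7% of all tested genes.

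**Figure D4:**
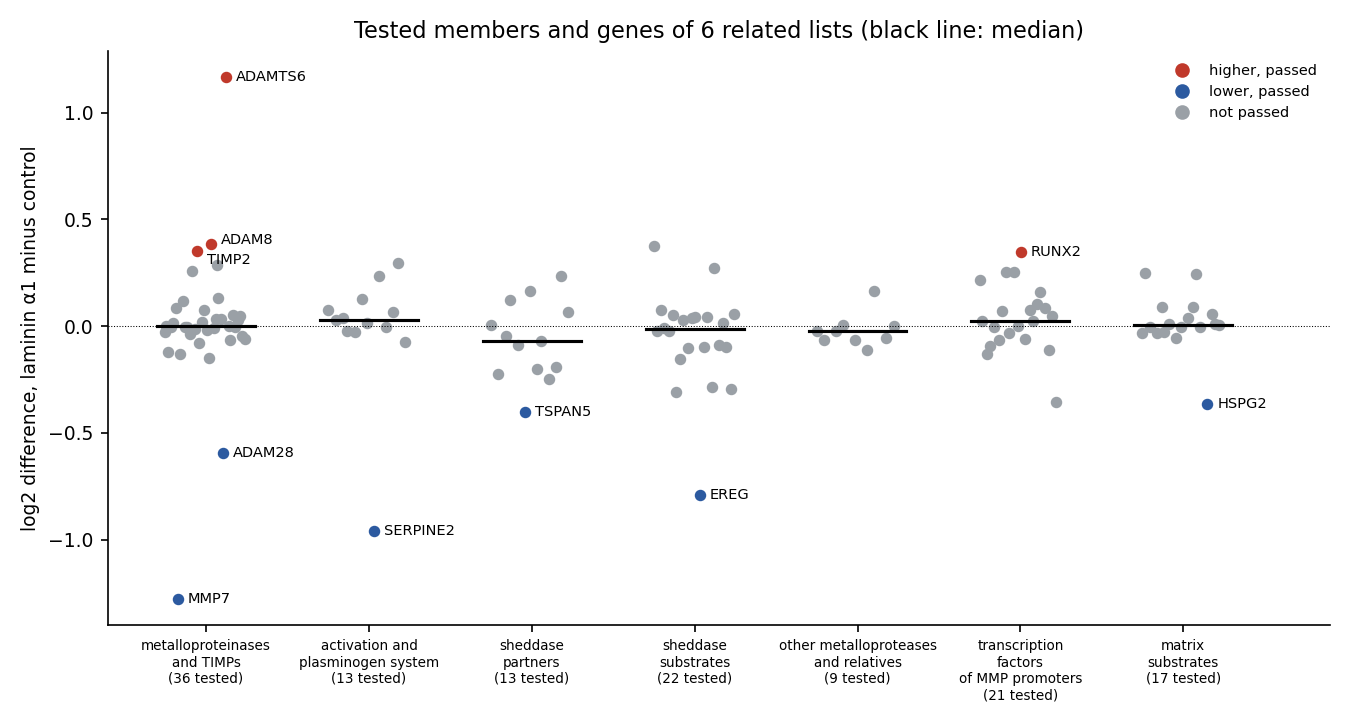
Log2 difference, laminin α1 minus control (y axis), of the 36 tested members and of the tested genes of the 6 lists (x axis), with genes past the threshold named and coloured and the median as a black line. Each list except the other metalloproteases has 1 gene past the threshold, and all medians lie between -0.07 and 0.03.

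The labels could not be checked by LAMA1, the gene of the laminin α1 chain, which read 5.65 ± 0.05 and 5.74 ± 0.05 (SD, n = 3) and did not pass (limma adjusted p = 0.535). Its laminin α1 arrays all lay above the controls (5.710 against 5.705 at the closest), as for 10.1% of all tested genes. Whether the probes of LAMA1 detect the construct is not stated in those sources. Of 10 colon epithelium markers all were above the filter, EPCAM at 12.05, and 2 passed the threshold. CDH17 went from 6.58 to 4.93, a mean below the filter level, and KRT20 from 11.12 to 10.77 (limma adjusted p = 0.00863). The mean level of these markers was 10.1 to 10.2 in the control and 9.96 to 9.99 in the laminin α1 arrays. The median difference over the 10 was -0.02, and those that did not pass lay between -0.12 (EPCAM) and 0.07 (KRT18). The part of these markers in the fall of MMP7 and ADAM28 was not tested. Of 9 fibroblast markers 5 were tested and 0 passed or had an unadjusted p under 0.05, with a mean level of 5.31 to 5.41 and 5.37 to 5.44, and the tested COL1A1, COL1A2 and COL3A1 were at 7.37, 6.44 and 6.22. DCN, LUM and FAP lay below the filter at 3.67, 3.81 and 4.32, and FAP was higher in all 3 laminin α1 arrays, by 0.25 (limma unadjusted p = 0.0260 in the fit without the filter). Of 9 endothelial and blood cell markers 3 were tested, 0 passed in limma and 1 had an unadjusted p under 0.05, with mean levels of 5.57 to 5.61 and 5.60 to 5.62. In RNA from whole cultures, fewer cells making a transcript and less transcript per cell cannot be told apart.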

How the data were processed

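The authors deposited log2 values, 1 per probe set and array, which per the submitters' processing notes came from RMA in Affymetrix Expression Console 1.1 (background correction, quantile normalization and summary of probes). They were used without further normalization, so that a shift common to all genes is hidden. The table held 33297 probe sets, with array medians of 6.45 to 6.49. The genome build is not given in the sources used here. Gene names came from the platform annotation, whose 19460 probe sets with 1 symbol gave 18417 genes. Genes with a mean above the 25th percentile (5.50) were tested in limma 3.58.1 (R 4.3.3; lmFit, eBayes) with the group as the only term, and p values were adjusted by Benjamini-Hochberg over all 13812. Precision is limited by the number of arrays (median SE of a difference 0.08). The fit was tested on simulated data.

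The members and lists were chosen with earlier results of these data known. Values in every array are given for members past the threshold, those with both an unadjusted p under 0.05 and groups that do not overlap, and MMP2, MMP7, MMP9, MMP14, ADAM10, ADAM17 and the TIMPs. Other genes were chosen after their values were seen. ADAMs were grouped by textbook knowledge in place of a protein motif, since protein sequences were not used here. Gene order and promoters came from RefSeq (GRCh38.p14), where all 64 members matched by symbol for order. Alternatives were the filter, the probe set rule, centring, quantile normalization, variance models, array weights, a replicate block, stricter thresholds and each array left out.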

Additional observations from a re-analysis of the deposited data

How the results depend on the processing

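The calls of MMP7 and ADAMTS6 held in all 15 alternative fits and that of ADAM28 in all 14 in which it was tested. Their differences ranged from -1.32 to -1.21, 1.06 to 1.21 and -0.68 to -0.50. At the 50th percentile filter 1 member was lower, since ADAM28 was no longer tested. With an adjusted p under 0.01, or a fold of at least 1.5, 1 member was higher, ADAMTS6. Over all genes these thresholds gave 200 higher and 193 lower, and 121 and 112, with 0 matrix substrates and 0 transcription factors either way and 0 sheddase partners at the fold. With all probe sets tested separately 224 genes were higher and 218 lower, with 0 matrix substrates and 0 transcription factors.

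Array weights, whose estimation stopped short of its tolerance, gave 2305 genes higher and 2386 lower, and 8 members higher. In the lists they called 5 activation genes, 4 matrix substrates, 1 other metalloprotease, 9 sheddase partners, 8 sheddase substrates and 6 transcription factors. Repeated quantile normalization gave 2 activation genes, 2 sheddase substrates and 0 transcription factors. Trended and robust eBayes gave 2 activation genes and 0 transcription factors, and median centring 2 activation genes.

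Arrays of equal replicate number deviated together for replicates 1 and 3 (correlations of 0.39 and 0.53 across genes) but not for replicate 2 (0.02). Deviations from a group mean sum to 0, so these correlations are not independent and cannot settle whether the numbers pair the arrays. The fit used above had the group as its only term. With the replicate block 746 genes were higher and 850 lower, with 3 activation genes, 3 matrix substrates, 4 sheddase partners, 6 sheddase substrates and 4 transcription factors. Members called under the block were 4 higher, with TIMP4 added (limma adjusted p = 0.0151), and 2 lower. Not every array correlated best with its own number.

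Over the 6 arrays left out in turn, 209 to 530 genes were higher and 192 to 681 lower. Counts moved by over 1.5 times without control replicate 1 (235 lower), control replicate 2 (209 and 196), laminin α1 replicate 2 (237 and 192) and laminin α1 replicate 3 (681 lower). Members higher ranged from 1 (without control replicate 2) to 4 (without laminin α1 replicate 3), with 2 lower in each. List counts were 1 to 2 for activation genes, 0 to 2 for matrix substrates, 1 to 4 for sheddase substrates and 0 to 1 for transcription factors, with the highest of the first 3 without laminin α1 replicate 3 and 2 sheddase substrates without laminin α1 replicate 1 or 2. Signal over background is not given in the sources used here, which limits what can be said of the 28 members below the filter.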
